A study of Caenorhabditis elegans with 12 samples.

Results

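The collagens described here shape the surface of the nematode Caenorhabditis elegans. Their names were fixed as a set of 10 genes: the furrow collagens dpy-2, dpy-3, dpy-7, dpy-8 and dpy-10, the body-shape collagens rol-6, sqt-1 and sqt-3, and the strut collagens bli-1 and bli-2. Probe sets that the array annotation pairs with 1 of these symbols alone were taken, which gave 12 probe sets for 9 genes, out of 22548 probe sets tested and 17138 genes. The annotation pairs 0 probe sets with dpy-10, which is therefore not analysed here. The genes dpy-2, sqt-3 and bli-1 had 2 probe sets each and are shown by that of higher mean, with the other stated for some comparisons.

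The worm's cuticle is an extracellular coat of cross-linked collagens that the epidermis secretes anew at each larval molt. Its collagen genes are transcribed in waves, once per molt cycle, and different collagens are made early or late in the cycle. The furrow collagens build the circumferential furrows that band the cuticle, and loss of any of them gives short, fat (Dumpy) animals and switches on epidermal stress responses. ROL-6 and SQT-1 set the helical arrangement of the cuticle, so that mutants roll or are squat, and SQT-3 is needed for the embryonic cuticle and body shape. BLI-1 and BLI-2 form the struts that join the layers of the adult cuticle across a fluid-filled space, and their loss gives blisters in adults.

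Affymetrix arrays measured total RNA of hrg-2 mutants and wildtype worms harvested in the middle to late part of L4, the stage before adulthood, after growth with 20 or 4 µM heme. This nematode lacks heme synthesis and depends on what it is fed, and HRG-2 is an epidermal protein with a role in heme use. The 4 groups are mutant at 20 µM, wildtype at 20 µM, mutant at 4 µM and wildtype at 4 µM, with 3 arrays each, whose titles number them 1 to 3. The labels name neither the hrg-2 allele nor a tissue, and hrg-2 has 0 probe sets in the annotation, which leaves the genotypes unchecked against the targeted gene. In RNA of mixed cells, fewer cells of a type and less RNA per cell cannot be told apart. The values are the deposited log2 expression values, on which 1 unit is a doubling, and values of different probe sets are not compared with each other. Separate cultures behind the arrays of a group are not stated by the labels, so a p-value here gauges the spread among these samples alone, and that spread may be technical.

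The arrays numbered 3 stood apart from those numbered 1 and 2 in all 4 groups, and values without a single array are given below where that array moved a result. Within groups, 29.1% of probe sets were called at an adjusted p under 0.05 (limma) when number 3 was set against the other two. Among the lists of tissue markers, sperm genes stood furthest apart: 27 of 28 were called higher on number 3, with a median log2 difference of 2.64. Number 2 against number 1 gave 0 calls, with 3.08% of probe sets at an unadjusted p under 0.05, and 2 of the 9 collagens lay above 0, beside 51.2% of all probe sets.

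The 4 measured furrow collagens followed a shared course over the 12 arrays, lowest on mutant array 3 at 4 µM and high on array 1 at 20 µM in both genotypes. The log2 level of dpy-7 was 10.12, 10.04 and 9.16 in mutants at 20 µM, 10.40, 8.35 and 9.55 in wildtype at 20 µM, 7.88, 8.57 and 7.01 in mutants at 4 µM, and 9.50, 8.91 and 9.17 in wildtype at 4 µM, on arrays 1, 2 and 3. All 3 mutant values at 4 µM lay below all 3 mutant values at 20 µM and below all 3 wildtype values at 4 µM. For dpy-2 the values were 10.35, 10.06 and 9.42 in mutants at 20 µM, 10.27, 8.21 and 9.81 in wildtype at 20 µM, 9.17, 9.40 and 6.80 in mutants at 4 µM, and 9.85, 9.04 and 9.24 in wildtype at 4 µM. Here mutant array 3 at 4 µM stood lowest of all 12, and the mutant and wildtype groups at 4 µM overlapped. The mutant groups at 20 and 4 µM did not overlap, though the gap between them was small.

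The same low arrays returned for dpy-3 and dpy-8. The log2 level of dpy-3 was 10.50, 10.24 and 10.33 in mutants at 20 µM, 10.70, 9.05 and 10.12 in wildtype at 20 µM, 8.98, 9.70 and 7.93 in mutants at 4 µM, and 10.30, 9.65 and 9.90 in wildtype at 4 µM. The mutants at 20 µM lay close together, with a mean of 10.35 ± 0.13 (SD, n = 3), against 8.87 ± 0.89 in mutants at 4 µM. For dpy-8 the values were 12.06, 11.46 and 10.60 in mutants at 20 µM, 11.56, 10.14 and 11.14 in wildtype at 20 µM, 10.73, 11.07 and 8.83 in mutants at 4 µM, and 11.01, 10.64 and 11.07 in wildtype at 4 µM. No pair of dpy-8 groups was separated: arrays 1 and 2 of the mutants at 4 µM read like wildtype at 4 µM, and array 3 alone was low. Over all 12 arrays the 4 furrow genes ranged over 2.78 (dpy-3) to 3.55 (dpy-2) log2 units, and without mutant array 3 at 4 µM over 1.73 (dpy-3) to 2.52 (dpy-7).

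The body-shape collagens varied less. Values of rol-6 were 12.17, 12.29 and 12.29 in mutants at 20 µM, 12.26, 12.36 and 12.60 in wildtype at 20 µM, 11.83, 12.30 and 11.01 in mutants at 4 µM, and 12.21, 12.48 and 12.35 in wildtype at 4 µM. Those of sqt-1 were 12.87, 12.57 and 12.68 in mutants at 20 µM, 12.61, 12.31 and 12.75 in wildtype at 20 µM, 11.70, 12.38 and 11.30 in mutants at 4 µM, and 12.50, 12.62 and 12.67 in wildtype at 4 µM. For sqt-1 the mutants at 4 µM lay below mutants at 20 µM and below wildtype at 4 µM without overlap, while for rol-6 mutant array 2 at 4 µM read as high as the other groups. The sqt-3 probe set was the flattest of the 9, with 11.88, 12.12 and 12.53 in mutants at 20 µM, 12.06, 11.88 and 11.92 in wildtype at 20 µM, 11.89, 11.60 and 11.81 in mutants at 4 µM, and 12.16, 12.02 and 12.13 in wildtype at 4 µM. Its range over the 12 arrays was 0.93 log2 units, against 1.59 for rol-6 and 1.58 for sqt-1. These 3 genes sat high on the arrays, with group means up to 12.71 where the brightest probe set of an array read 13.59 to 13.96. The other sqt-3 probe set, with 11.43, 11.72 and 11.13 in mutants at 4 µM and 12.26, 12.12 and 12.25 in wildtype at 4 µM, ranged over 1.37 units.

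The strut collagens moved most, and together. The log2 level of bli-1 was 11.85, 11.45 and 11.81 in mutants at 20 µM, 11.59, 8.92 and 12.14 in wildtype at 20 µM, 6.98, 8.06 and 10.53 in mutants at 4 µM, and 10.33, 8.25 and 11.86 in wildtype at 4 µM. That of bli-2 was 11.77, 11.26 and 11.53 in mutants at 20 µM, 11.51, 8.79 and 12.00 in wildtype at 20 µM, 7.10, 8.39 and 9.69 in mutants at 4 µM, and 10.16, 8.47 and 11.53 in wildtype at 4 µM. For both genes the mutants at 20 µM were uniformly high, the mutants at 4 µM were lower on every array, and each wildtype group held 1 low array, number 2. Over the 12 arrays bli-1 ranged over 5.16 log2 units, a 35.8-fold span, and bli-2 over 4.91, a 29.97-fold span. The lowest value of both was mutant array 1 at 4 µM, not array 3, which was lowest for 6 of the 9 genes: the 4 furrow genes, rol-6 and sqt-1.

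**Figure D1:**
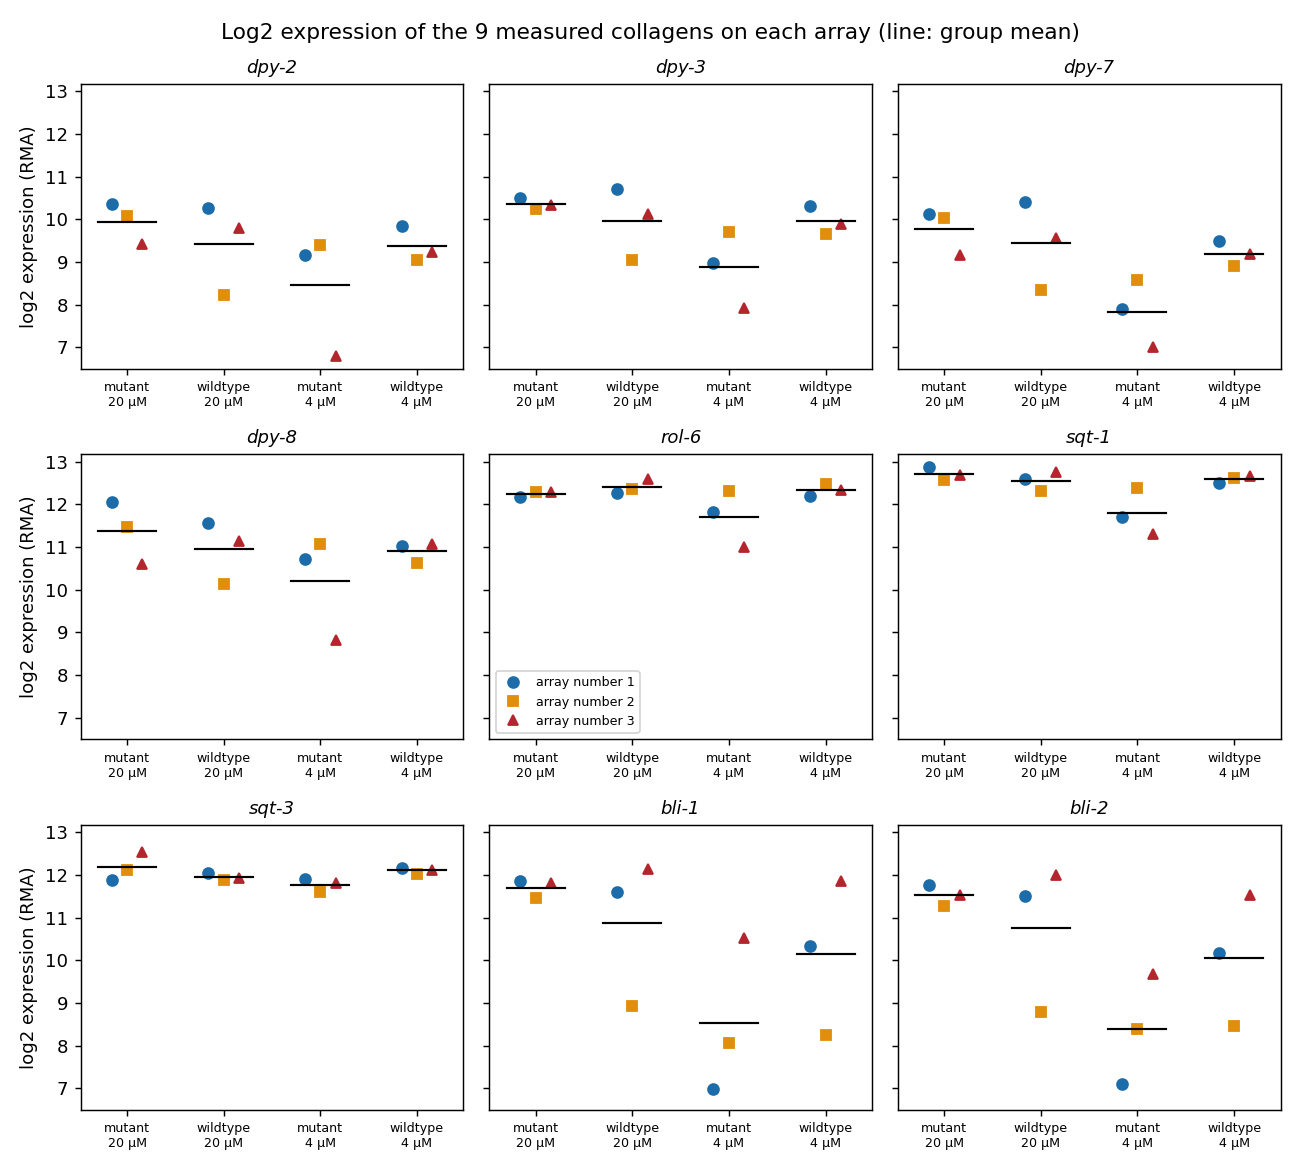
Log2 expression of each of the 9 measured collagens on the 12 arrays, by group on the horizontal axis, with points shaped by array number and a line at each group mean. The furrow genes and rol-6 and sqt-1 are lowest on array 3 of the mutants at 4 µM, whereas bli-1 and bli-2 are lowest on array 1 of that group, at 6.98 and 7.10.

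The likeness of members over the arrays was described by the root mean square of the differences between their log2 values, after each gene's mean over the 12 arrays was taken off. It was 0.285 log2 units between bli-1 and bli-2, whose own root mean square deviations were 1.73 and 1.59. Between dpy-2 and dpy-8 it was 0.276, between dpy-3 and dpy-7 0.308, and between rol-6 and sqt-1 0.210. Differences from the strut genes, which varied most themselves, were larger: 1.67 between dpy-2 and bli-1, and 1.56 between sqt-1 and bli-1. Furrow and body-shape genes were not always further apart than genes of 1 role. The figure was 0.411 between dpy-3 and sqt-1, against 0.450 between dpy-7 and dpy-8. It grows with the variation of the genes themselves, whose own deviations were 0.758 and 0.442 in the first pair and 0.943 and 0.778 in the second. Within the body-shape genes sqt-3 was at 0.401 from rol-6 and 0.410 from sqt-1, both larger than its own deviation of 0.221. These figures share the same 12 arrays and are a description only.

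The first comparison asked how the collagens of hrg-2 mutants differed between 20 and 4 µM heme. All 9 measured genes were higher at 20 µM, by 0.41 to 3.18 log2 units with a median of 1.48, where the median of all probe sets was -0.05 and 44% of them lay above 0. None of the 9 was called at an adjusted p under 0.05 (limma), in a comparison that called 0.0399% of probe sets, all of them lower. At an unadjusted p under 0.05 stood 6 of the 9 genes, beside 6.16% of all probe sets.

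The largest of these differences were in the strut genes. The level of bli-1 averaged 11.70 ± 0.22 in mutants at 20 µM and 8.52 ± 1.82 at 4 µM (SD, n = 3 each), a difference of 3.18 ± 1.13 log2 units (SE), or 9.07-fold, with a limma adjusted p of 0.799. The other bli-1 probe set differed by 2.86. For bli-2 the difference was 3.13 ± 0.97, or 8.73-fold, with an adjusted p of 0.769. Both were higher at 20 µM on all 3 arrays, and the 2 groups did not overlap. Without mutant array 3 at 4 µM these differences were 4.18 for bli-1 and 3.77 for bli-2, with adjusted p-values of 0.135 and 0.146.

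Among the furrow genes, dpy-7 showed the largest difference between mutants at 20 and 4 µM, 1.95 ± 0.53 log2 units, or 3.87-fold, with an unadjusted p of 0.00409 and a limma adjusted p of 0.769. The differences of dpy-2, dpy-3 and dpy-8 were 1.49 ± 0.70, 1.48 ± 0.48 and 1.16 ± 0.59. Without mutant array 3 at 4 µM, those of dpy-2 and dpy-8 came to 0.66 and 0.47, both under 1 unit. Those of dpy-3 and dpy-7 came to 1.01 and 1.55. The other dpy-2 probe set differed by 1.44, with a 95% interval of 0.25 to 2.63, and by 0.95 without that array. Of the body-shape genes, sqt-1 differed by 0.91 ± 0.26 (adjusted p 0.769), rol-6 by 0.54 ± 0.28 and sqt-3 by 0.41 ± 0.19, with 0.73 ± 0.24 for the other sqt-3 probe set, whose groups did not overlap. Leaving out that array brought rol-6 to 0.18 and sqt-1 to 0.67.

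Values at 20 µM lay wholly above those at 4 µM in mutants for 6 of the 9 genes, dpy-2, dpy-3, dpy-7, sqt-1, bli-1 and bli-2, and 4.87% of all probe sets were separated in that direction. None was separated as lower, beside 4.47%. Without mutant array 3 at 4 µM the same 6 genes were separated, beside 15.6% of all probe sets. With arrays 1 and 2 alone 7 were, beside 25.7%. With the array number as a block, 7 of the 9 genes had an unadjusted p under 0.05, beside 12.5% of all probe sets, and the lowest adjusted p among them was 0.176, for bli-2.

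In wildtype animals the collagens differed little on average between 20 and 4 µM, with wide intervals. Differences ran from -0.15 (sqt-3) to 0.74 (bli-1) with a median of 0.05, 0 of the 9 genes were called, and the comparison called 0.0355% of probe sets. None of the 9 reached an unadjusted p under 0.05 either, beside 1.39% of all probe sets. Of the 9 genes, 7 lay above 0, beside 49.1% of all. The difference of bli-1 was 0.74 ± 1.13, with a 95% interval of -1.76 to 3.24, and that of dpy-7 was 0.24 ± 0.53, with an interval of -0.94 to 1.42. These intervals do not show that heme left the collagens alone in wildtype. No member had separated groups, where 2.64% of all probe sets were separated as higher and 4.04% as lower. Without wildtype array 2 at 20 µM dpy-7 and dpy-8 were separated as higher, 2 of the 9 beside 5.09% of all probe sets. Wildtype array 2 at 20 µM was low for the furrow and strut genes, and without it bli-1 differed by 1.72, bli-2 by 1.70 and dpy-7 by 0.78. Other arrays moved the differences the other way. Without wildtype array 2 at 4 µM bli-1 differed by -0.21 and bli-2 by -0.08, and 2 of the 9 lay above 0. Without wildtype array 1 at 20 µM dpy-7 differed by -0.24, and 3 of the 9 lay above 0.

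Because the titles carry the numbers 1 to 3 in each group, same-numbered arrays were also set side by side. At 20 minus 4 µM, bli-1 gave 4.87, 3.39 and 1.28 in the mutant pairs and 1.27, 0.67 and 0.28 in the wildtype pairs. The corresponding values of bli-2 were 4.67, 2.87 and 1.84 in mutants and 1.35, 0.32 and 0.47 in wildtype. Both genes were thus higher at 20 µM in 6 of 6 pairs, a pattern that 2.73% of all probe sets had, although the other bli-1 probe set was higher in 5 of 6. All 4 furrow genes were higher in 3 of 3 mutant pairs and 2 of 3 wildtype pairs, number 2 being the exception in wildtype. Of all probe sets, 13.6% were higher in the 3 mutant pairs.

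The series design names mutant against wildtype at each heme level as its comparison. At 4 µM all 9 collagens averaged lower in mutants, by 0.34 (sqt-3) to 1.66 (bli-2) log2 units, where 53.1% of all probe sets lay above 0. The median of the 9 was -0.92 and that of all probe sets 0.03. None was called by limma, in a comparison that called 0.00887% of probe sets, and 4 of the 9 had an unadjusted p under 0.05, beside 6.11% of all.

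The 4 were dpy-7, dpy-3, sqt-1 and rol-6. In mutants at 4 µM dpy-7 averaged 7.82 ± 0.78, against 9.19 ± 0.29 in wildtype (SD, n = 3 each), a difference of -1.37 ± 0.53 (SE). For sqt-1 the means were 11.79 ± 0.55 in mutants and 12.60 ± 0.08 in wildtype, a difference of -0.80 ± 0.26 with a limma adjusted p of 0.791. The differences of dpy-3 and rol-6 were -1.08 ± 0.48 and -0.63 ± 0.28, and without mutant array 3 at 4 µM -0.61 and -0.28. The larger differences of bli-1 and bli-2, -1.62 ± 1.13 and -1.66 ± 0.97, came with larger errors, and their groups overlapped.

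Mutant and wildtype values at 4 µM did not overlap for dpy-7, sqt-1 and sqt-3, 3 of the 9, and 4.28% of all probe sets were separated as lower. None was separated as higher, beside 4.84%. The other dpy-2 probe set was also separated, at -1.03 ± 0.53. Mutant array 3 weighed on the furrow genes: without it dpy-2 differed by -0.09 and dpy-8 by -0.01, while dpy-7 still differed by -0.97. The other dpy-2 probe set still differed by -0.53 without it. Without that array 5 of the 9 were separated as lower, dpy-7, sqt-1, sqt-3, bli-1 and bli-2, beside 12.2% of all probe sets. For bli-1 the leave-one-out range was -2.63, without mutant array 3, to -0.77, without wildtype array 3. The separate sqt-3 probe set gave -0.79 ± 0.24 with an adjusted p of 0.791. Centring each array on its own median moved the median of all probe sets in this comparison to 0.16, and the median of the 9 members to -0.78.

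At 20 µM mutants and wildtype differed little on average, with wide intervals that do not show the genotypes to be alike. Of the 9 genes, 8 averaged higher in mutants, by 0.15 to 0.82 log2 units, beside 48.0% of all probe sets above 0, and rol-6 lower at -0.16 ± 0.28. No member was called, where the comparison called 0.00443% of probe sets, none had an unadjusted p under 0.05, beside 1.68% of all, and no member's groups were separated, where 3.03% of probe sets were separated as higher and 3.69% as lower. The largest difference was in bli-1, 0.82 ± 1.13 with a 95% interval of -1.68 to 3.32. Its means were 11.70 ± 0.22 in mutants and 10.88 ± 1.72 in wildtype (SD, n = 3 each), with wildtype array 2 lowest at 8.92. Without wildtype array 2 the median of the 9 members was -0.09, against 0.39 with all arrays, and bli-1 differed by -0.16. Averaged over both heme levels, the genotype differences of the 9 genes ran from -0.52 to -0.05, all below 0, where 52.8% of probe sets lay above 0. Without mutant array 3 at 4 µM dpy-2 and dpy-8 were at 0.21 each, though the other dpy-2 probe set was at -0.09. Without wildtype array 3 at 4 µM bli-1 was at 0.03. Of the 9, 1 or 2 were also above 0 without wildtype array 1, mutant array 1 or mutant array 3 at 20 µM. None was called, beside 0.00887% of probe sets, and 0 had an unadjusted p under 0.05, beside 6.18%. Their adjusted p-values were 0.810 to 0.948. The other sqt-3 probe set averaged -0.39, with a 95% interval of -0.76 to -0.01.

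Whether the genotype difference itself depended on heme was tested as the difference at 20 µM minus that at 4 µM. It was above 0 for all 9 genes, from 0.47 (rol-6) to 2.44 (bli-1) with a median of 1.44, where the median of all probe sets was -0.02 and 47.8% lay above 0. Without mutant array 3 at 4 µM all 9 were still above 0 with a median of 0.70, dpy-2 at 0.61, dpy-8 at 0.43 and rol-6 at 0.12, while bli-1 came to 3.45. Without wildtype array 2 at 20 µM the median was 0.83, with bli-1 at 1.46 and bli-2 at 1.42. No member and no other probe set was called by limma (0.00%). At an unadjusted p under 0.05 were dpy-7, with 1.71 ± 0.75, and sqt-1, with 0.95 ± 0.36, 2 of the 9 beside 1.65% of all probe sets. The other sqt-3 probe set gave 0.80, with a 95% interval of 0.05 to 1.55. The intervals of bli-1 and bli-2 ran from -1.09 to 5.98 and from -0.63 to 5.46. This test uses the same 12 arrays as the heme and genotype comparisons above, which share their groups, so the directions are not separate evidence.

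**Figure D2:**
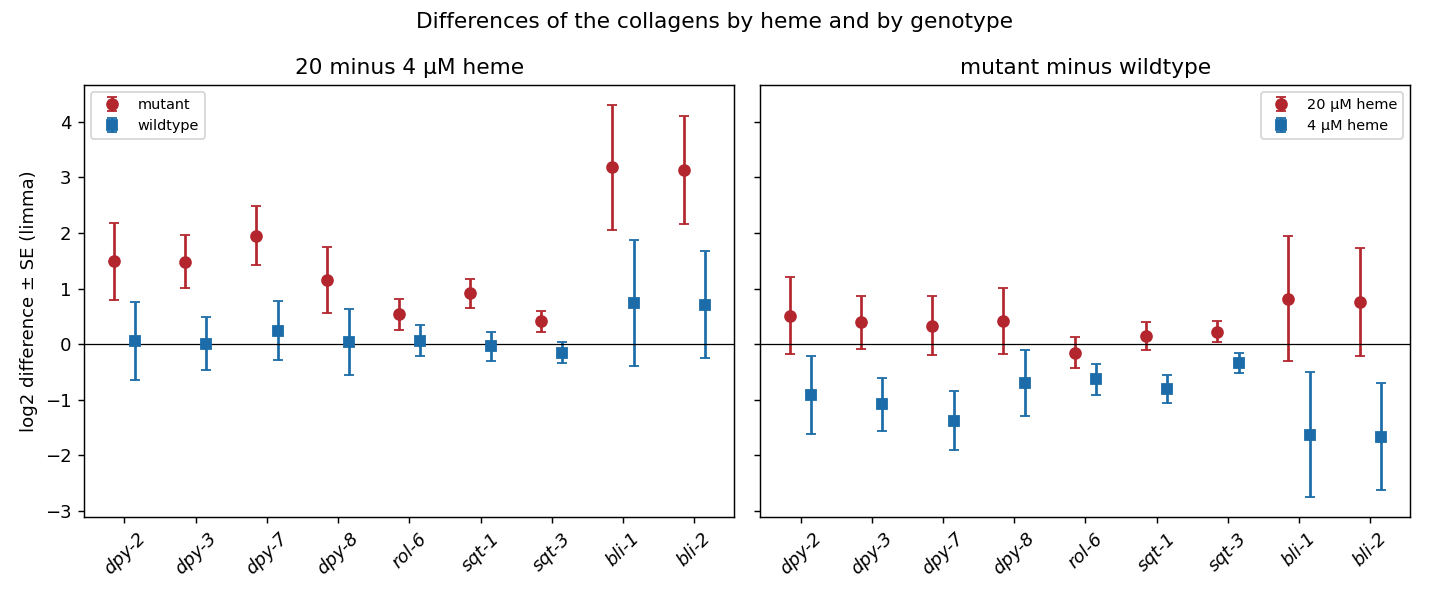
Log2 differences of the 9 collagens with standard errors from limma: 20 minus 4 µM heme in mutants and in wildtype on the left, and mutant minus wildtype at 20 and at 4 µM on the right. In mutants every gene lies above 0 for heme, up to 3.18 for bli-1, and at 4 µM every gene lies below 0 for genotype.

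The strut genes averaged higher on array number 3, where bli-1 was called, and the furrow genes averaged lower there without being called. In a fit with group and number, bli-1 was higher on number 3 than on numbers 1 and 2 by 1.90 ± 0.55 log2 units, or 3.75-fold, with a limma adjusted p of 0.0257. It was the only 1 of the 9 called, which is close to the share of all probe sets called higher, 11.0%. The comparison called 18.1% lower. The other bli-1 probe set gave 1.32 with an adjusted p of 0.0776, and bli-2 gave 1.51 ± 0.51 with 0.0507, so neither was called. The call of bli-1 was lost (adjusted p 0.0553 to 0.0986) when wildtype array 2 or 3 at 4 µM, wildtype array 3 at 20 µM or mutant array 3 at 4 µM was left out. At an unadjusted p under 0.05 stood bli-1 and bli-2, 2 of the 9 beside 38.7% of all probe sets, and 3 of the 9 lay above 0, beside 43.7%. No member was higher on number 3 than on both other arrays in all 4 groups, or lower in all, where 10.2% of probe sets were higher and 15.8% lower.

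In mutants at 20 µM the strut shift was near 0. There number 3 exceeded the mean of numbers 1 and 2 by 0.16 for bli-1 and 0.02 for bli-2. In wildtype at 20 µM the shifts were 1.88 and 1.86, in mutants at 4 µM 3.01 and 1.94, and in wildtype at 4 µM 2.57 and 2.22. Whether the shift differs between these groups was not tested, with 1 array numbered 3 in each.

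On number 3 the furrow genes lay below 0 in mutants and near it in wildtype. In mutants at 4 µM the shift was -2.49 for dpy-2, -2.07 for dpy-8, -1.41 for dpy-3 and -1.22 for dpy-7. In mutants at 20 µM the shifts were -0.78 for dpy-2, -1.16 for dpy-8, -0.04 for dpy-3 and -0.91 for dpy-7. In wildtype they lay between -0.20 and 0.56 in all 8 cases. Over the 4 groups the fitted differences were -0.73 ± 0.44 for dpy-2, -0.67 ± 0.38 for dpy-8, -0.50 ± 0.35 for dpy-7 and -0.32 ± 0.33 for dpy-3, none called. The median of the 4 was -0.17 without mutant array 3 at 4 µM, against -0.59 with it, and 3 of the 4 lay below 0. The body-shape genes gave -0.18 (rol-6), -0.10 (sqt-1) and 0.14 (sqt-3). With mutant arrays alone, dpy-8 was called lower at -1.62 (limma adjusted p 0.0473) and bli-1 was not called (1.58, adjusted p 0.227). The other dpy-2 probe set was also called lower there, at -1.21. With wildtype arrays alone bli-1 and bli-2 were called higher at 2.23 and 2.04. The shares of all probe sets called in these fits are not given here. The fit over all groups called 29.1%.

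**Figure D3:**
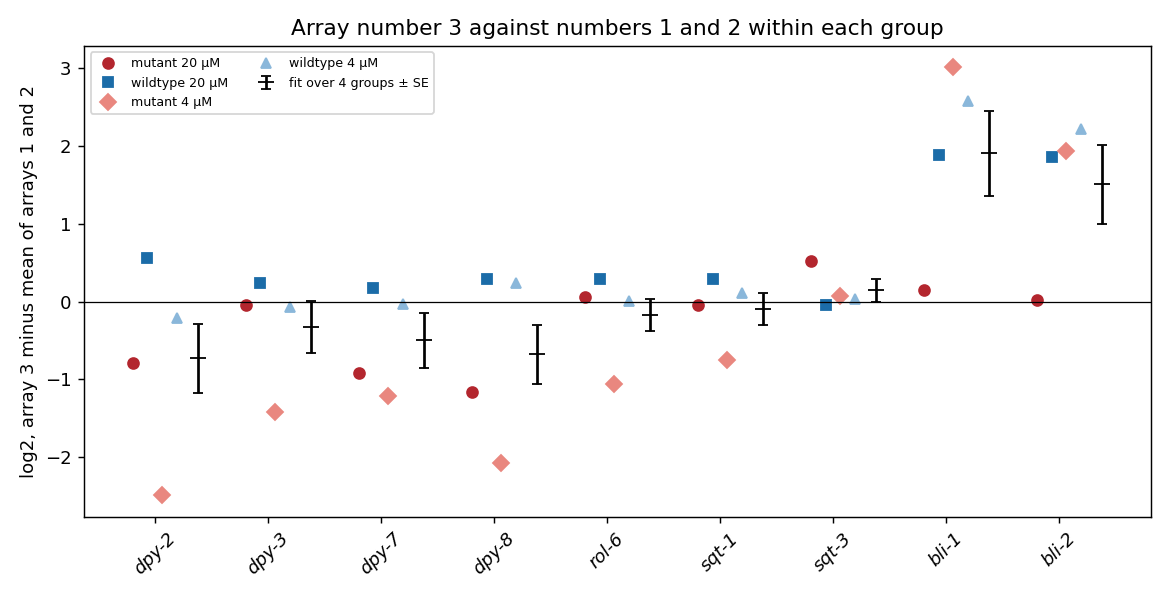
Log2 value on array number 3 minus the mean of arrays 1 and 2, for each collagen in each of the 4 groups, with the fit over all groups and its standard error in black. bli-1 and bli-2 lie near 2 or above in all groups but mutants at 20 µM, and dpy-2 and dpy-8 lie at -2.49 and -2.07 in mutants at 4 µM.

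Genes outside the set with the most similar course over the 12 arrays were ranked by the root mean square difference from the mean course of each role. Nearest to the furrow genes, whose mean course had a root mean square deviation of 0.831 log2 units, were T14B4.19 at 0.148, K08B12.1 and dpy-9 at 0.149 each, Y38H8A.1 at 0.187 and F44E2.4 at 0.214. DPY-9 is itself a furrow collagen that was not among the 10 names, and in the RefSeq annotation T14B4.19 lies between dpy-10 and dpy-2. Between mutants at 20 and 4 µM dpy-9 differed by 1.59 and Y38H8A.1 by 1.64, on the same arrays that chose them.

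Nearest to the strut genes, whose mean course deviated by 1.65, were col-110 at 0.328, E01G4.6 at 0.354, col-38 at 0.467, col-71 at 0.585 and pes-8 at 0.590. Thus 3 of these 5 are collagens of the col series. They were chosen for their course over these 12 arrays, which is high on number 3, so their differences on that axis restate the choice: number 3 exceeded numbers 1 and 2 by 1.47 for col-110 and 2.56 for col-71. In mutants, col-110 averaged 3.08 higher at 20 µM than at 4 µM. The body-shape genes had no close neighbours: the nearest, epg-7, F33G12.6, R10E4.9, Y54G2A.37 and samt-1, differed from their mean course by 0.165 to 0.180, against its own deviation of 0.303.

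**Figure D4:**
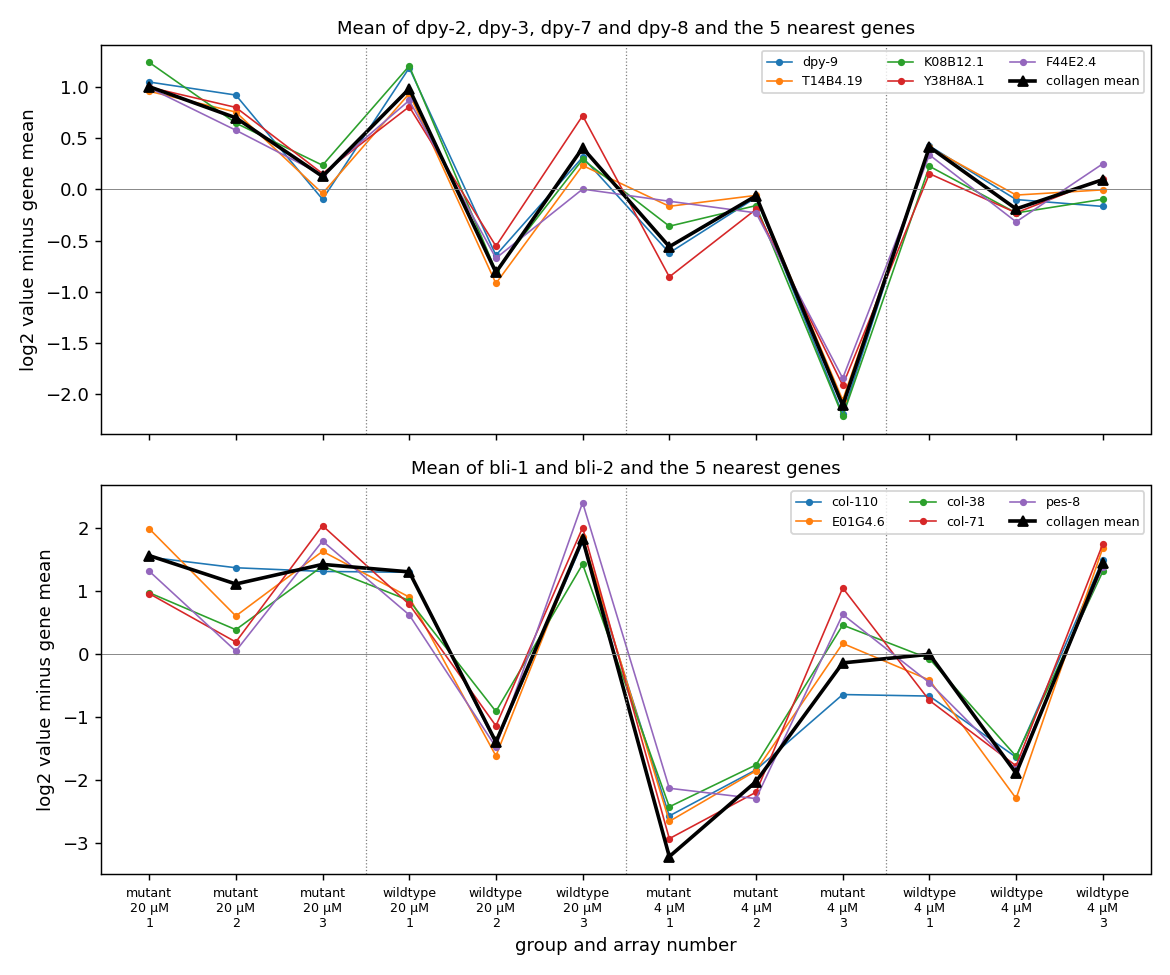
Log2 values over the 12 arrays, each gene centred on its own mean, for the mean of the furrow genes with its 5 nearest genes (top) and the mean of the strut genes with its 5 nearest (bottom). The furrow course has its low point on mutant array 3 at 4 µM, and the strut course on mutant array 1 at 4 µM.

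The partners of these collagens were read from lists of genes known for the same processes. Of 9 measured collagens that also set body shape or lie in the same structures, 8 were higher at 20 than at 4 µM in mutants, with a median of 0.48 and 0 called. Of 13 genes that fold, hydroxylate, cleave or cross-link collagens, 8 were higher at 20 µM, with a median of 0.36 and 0 called. At an unadjusted p under 0.05 were 4 of the 13, beside 6.16% of all probe sets. They were pdi-2 (1.36 ± 0.40), phy-2 (1.96 ± 0.57), dpy-18 (1.22 ± 0.44) and dpy-31 (0.78 ± 0.34), named after their values were seen. The 5 that averaged lower at 20 µM were bli-5, bli-3, doxa-1, tsp-15 and mlt-7. PDI-2, PHY-2 and DPY-18 are subunits of the prolyl 4-hydroxylase that modifies cuticle collagens in the secretory pathway, and DPY-31 is a protease that trims procollagens such as SQT-3. Of 15 genes of molting and the apical matrix, 14 were higher at 20 µM, with a median of 0.88, and 14 averaged lower in mutants than in wildtype at 4 µM, with a median of -0.38, again with 0 called in each comparison. These list values rested on mutant array 3 at 4 µM: without it 10 of 15 were higher at 20 µM, with a median of 0.04, and 10 of 15 averaged higher in mutants at 4 µM, with a median of 0.15. Without it the maturation genes had a median of 0.12 and the other shape collagens 0.23 between mutants at 20 and 4 µM.

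On the number axis more of these genes passed, in a comparison that called 11.0% of all probe sets higher and 18.1% lower. All 4 measured collagens of an adult-enriched list were called higher on number 3, col-19 by 3.83 ± 0.49, col-49 by 3.08 and col-63 by 2.70, and the fourth was col-38, by 1.72. The level of col-19, the usual marker of the adult epidermal programme, on array 3 was 12.04 in mutants at 20 µM, 11.01 in wildtype at 20 µM, 12.78 in mutants at 4 µM and 10.86 in wildtype at 4 µM. On arrays 1 and 2 it read between 6.76 and 8.86, so bli-1 and bli-2, high on arrays 1 and 2 of mutants at 20 µM, did not follow it there. The other 3 collagens of that list were, like bli-1 and bli-2, higher on arrays 1 and 2 of mutants at 20 µM than on those at 4 µM. On mutant arrays 1 and 2 col-38 read 12.60 and 12.01 at 20 µM against 9.21 and 9.87 at 4 µM, col-49 read 11.57 and 10.47 against 7.90 and 8.28, and col-63 read 12.09 and 10.56 against 8.79 and 8.46. Between mutants at 20 and 4 µM, 3 of the 4 were higher, with a median of 2.16 and 0 called. Of the 13 maturation genes, phy-3, another prolyl 4-hydroxylase, was called higher (2.82) and 5 were lower, among them tsp-15 (-1.47), a tetraspanin needed for cuticle cross-linking, and dpy-31 (-0.71). Of the 15 molting and matrix genes 4 were called lower and 0 higher, or 1 to 6 lower when each array was left out, with 1 without mutant array 3 at 4 µM, let-653 (-1.58), wrt-10 (-1.24) and lpr-1 (-1.43) having the smallest p. Among 11 regulators 1 was called higher, elt-1 (1.91), and 2 lower, nhr-23 (-1.02), a receptor that drives molting genes, and elt-3 (-0.69), an epidermal GATA factor, which is close to the shares of all probe sets.

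The furrow collagens are sensed by the epidermis, which answers their loss with antimicrobial, osmotic and detoxification genes. Of 10 measured genes of that response, 0 were called in any heme or genotype comparison. Their median was 0.24 for heme in mutants and -0.10 for genotype at 4 µM, and without mutant array 3 at 4 µM these were -0.05 and 0.14. On number 3, where 11.0% of all probe sets were called higher and 18.1% lower, 1 of the 10 was called higher, cnc-2 (0.79), and 1 lower, gst-4 (-1.12), no more than those shares. Of 128 measured collagens named col, 0 were called between mutants at 20 and 4 µM, with a median of -0.18, and 41 were higher and 5 lower on number 3. In that list 42 of 128 lay above 0 for heme in mutants, beside 9 of 9 of the collagens described here.

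Markers of other tissues moved with some of these results. Between mutants at 20 and 4 µM, 27 of 28 sperm markers were higher, with a median of 1.45 and 0 called, and 15 oocyte and eggshell markers had a median of -0.11. The mean log2 level of the sperm list ran from 8.77 to 11.12 on the arrays of mutants at 20 µM, 8.67 to 10.68 in wildtype at 20 µM, 7.02 to 11.33 in mutants at 4 µM and 7.95 to 10.70 in wildtype at 4 µM. The highest mean of the oocyte list, 9.68, was on mutant array 3 at 4 µM, the array on which the furrow genes were lowest. Intestine, muscle and neuron markers differed by medians of -0.18, 0.20 and -0.09 between mutants at 20 and 4 µM. On mutant arrays 1, 2 and 3 at 4 µM the median deviation of the sperm list from each gene's mean was -2.23, -2.33 and 2.05, while that of bli-1 and bli-2 was -3.21, -2.02 and -0.14. The 5 yolk genes had a median of 0.14 between mutants at 20 and 4 µM. The medians of the sperm, oocyte and yolk lists in that comparison were 2.93, 0.73 and 1.76 without mutant array 3 at 4 µM. In the same setting the furrow genes came to 0.47 (dpy-8) to 1.55 (dpy-7), rol-6 to 0.18 and sqt-1 to 0.67. The strut genes came to 4.18 (bli-1) and 3.77 (bli-2).

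The median of the sperm list had the sign of the collagens' median in the other heme and genotype comparisons and the interaction too. On number 3 against numbers 1 and 2 the signs were opposite, with 2.64 for the sperm list and -0.18 for the 9 collagens. Mutant minus wildtype at 4 µM, 24 of 28 sperm markers averaged lower with a median of -0.87, beside -0.92 for the 9 collagens. Without mutant array 3 all 28 were lower with a median of -2.35. The furrow genes then differed by only -0.97 (dpy-7) to -0.01 (dpy-8), rol-6 by -0.28 and sqt-1 by -0.55, with bli-1 at -2.63. The likeness of the sperm and collagen medians thus rested on that array. At 20 µM 27 of 28 averaged higher in mutants, with a median of 0.50, beside 0.39 for the collagens. For the interaction 27 of 28 were above 0, with a median of 1.35, beside 1.44. Yolk genes had genotype medians of -1.25 at 4 µM and -2.36 at 20 µM, and the oocyte list 0.36 and 0.18. None of these lists held a called gene in the genotype comparisons or the interaction. The part of germline content or stage in the collagen differences was not tested.

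**Figure D5:**
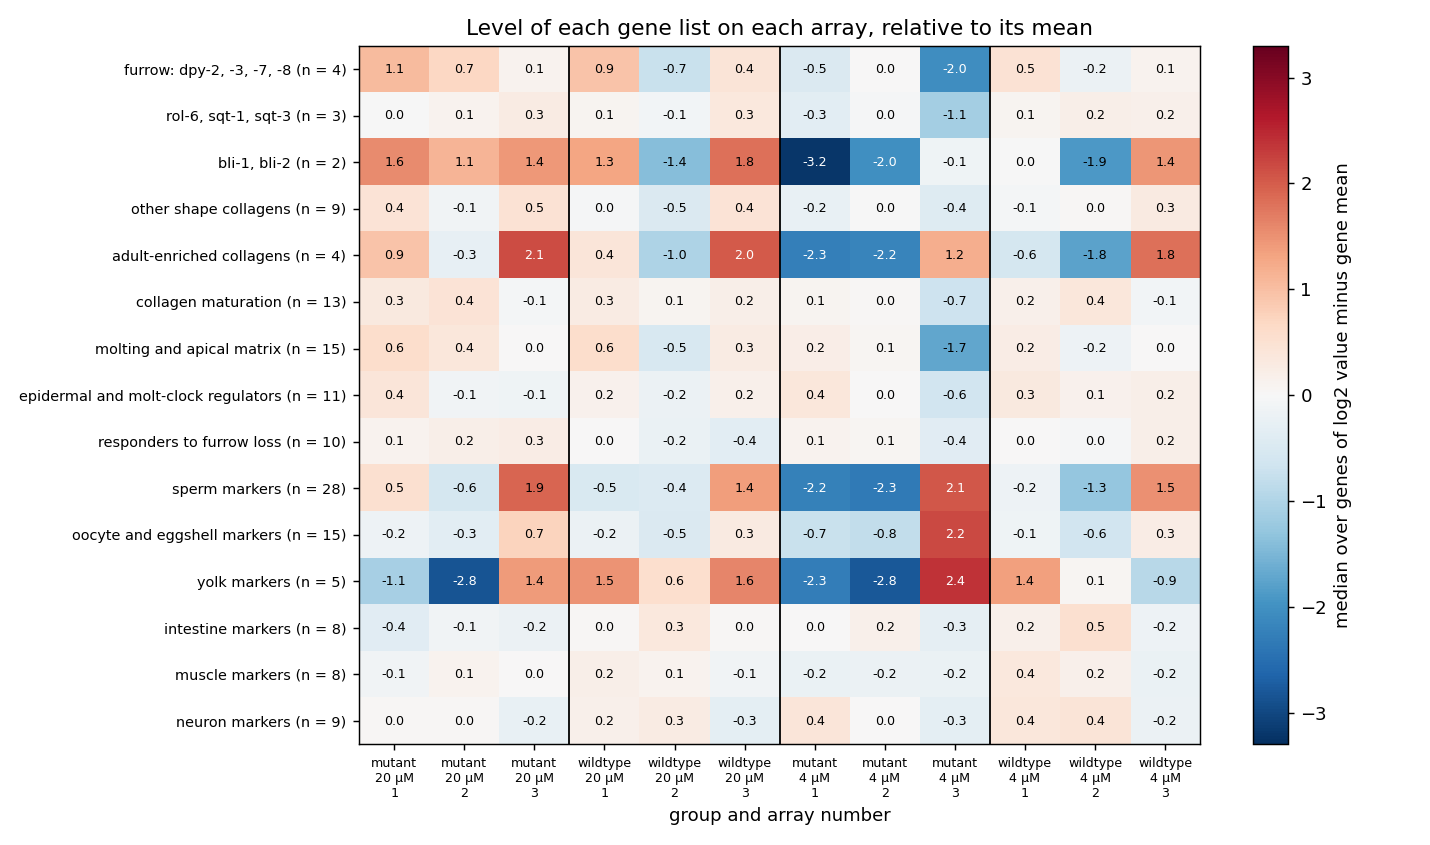
Median over the genes of each list of the log2 value minus that gene's mean over the 12 arrays, with groups and array numbers on the horizontal axis and lists down the page. The furrow list is lowest on mutant array 3 at 4 µM, where sperm, oocyte and yolk markers are high, and the strut and sperm lists are both low on mutant arrays 1 and 2 at 4 µM.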

How the data were processed

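Total RNA was labelled and hybridised to Affymetrix arrays, 12 in all. Per the submitters' processing notes, the authors made the deposited log2 values with RMA in Partek 6.5; the settings are not given by the sources used here. No further normalization was applied. With 77 control probe sets dropped, 22548 were tested, with no filter on dim ones. Symbols came from the platform annotation, checked against the RefSeq annotation of WBcel235.

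Limma 3.58.1 in R 4.3.3 fitted 4 group means to all 12 arrays, two-sided, with Benjamini-Hochberg adjustment over all probe sets and a threshold of 0.05. A second fit added the array number. The method was tested on simulated data. The number of arrays limits the precision. The members, lists and comparisons were chosen with earlier results of these data known. Every member was named, and from each other list up to 3 genes of smallest p on number 3 and the 5 nearest genes of each course; pdi-2, phy-2 and dpy-18 were added after their values were seen.

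Deviations from group means correlated across probe sets, which are not independent, in all 12 same-numbered pairs of compared groups (r 0.255 to 0.817). In 6 same-numbered pairs of groups not compared r was 0.101 to 0.702, and in 36 pairs of different numbers -0.792 to 0.606. Deviations sum to 0 within a group, so high values in same-numbered pairs bring low ones in the others. These ranges are therefore not separate evidence. The numbers were treated as pairing the arrays in an alternative fit, though the labels do not state it. Other alternatives were another scaling, a filter, array weights, 2 groups alone and leaving out arrays.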

Additional observations from a re-analysis of the deposited data

How the results depend on the processing

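The members called between mutants at 20 and 4 µM heme numbered 0 as reported. They numbered 2, bli-1 and bli-2, with limma's array weights (adjusted p 0.0434 and 0.0481, with 4.45% of all probe sets called, though the estimate of the weights stopped before convergence), with arrays 1 and 2 alone (0.0225 and 0.0272, with 14% called) and, in a setting chosen after seeing the data, with the replicate block and without mutant array 3 at 4 µM (0.0330 and 0.0433, with 6.78% called). The replicate block alone left 0 members called there and in every other genotype or heme comparison, so the block changed no member's call. It did change unadjusted p-values of limma. For the interaction 5 of the 9 stood under 0.05 with the block against 2 without, beside 3.22% and 1.65% of all probe sets. For genotype at 4 µM 5 did against 4, beside 11.4% and 6.11%. The lowest adjusted p of a member with the block was 0.997 and 0.365 in these 2 comparisons. On number 3, 1 member was called, in a comparison that called 29.1% of all probe sets. With median centring, with probe sets above the median mean and in wildtype arrays alone, 2 members were called. With array weights 0 were, and 0 to 2 when each array was left out in turn. The shares of all probe sets called in those settings are not given here, so these counts have no background beside them. The call of bli-1 was lost without wildtype array 2 or 3 at 4 µM, wildtype array 3 at 20 µM or mutant array 3 at 4 µM. The cause was not tested. Leaving out arrays for the gene lists, and for groups that do not overlap, was chosen after seeing the data. Over all comparisons and settings, 93 of 1920 member values changed sign, all uncalled and none for heme in mutants or for the interaction. With 3 arrays per group, the number of arrays limits what could be detected. A search of promoters for motifs was not run, since no promoter sequence was used here.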
